A study of Mus musculus with 6 samples.

Results

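The lysyl oxidase family of the mouse consists of Lox and the 4 lysyl oxidase-like genes Loxl1, Loxl2, Loxl3 and Loxl4. Its members were taken by gene symbol, and all 5 were found among the 49568 genes of the deposited expression table. All 5 passed the filter on low values, which 16879 genes passed. Expression was measured by RNA sequencing in the right lung lobes, perfused through the vasculature, of Col6a1-/- mice and of wildtype mice, both given as C57BL/6 and 6 weeks old. There were 3 libraries per genotype, and every library was a pool of RNA from 2 mice. The sources used here do not give the sex of the mice or how the Col6a1 allele was made.

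Lysyl oxidases are secreted, copper-dependent amine oxidases. They convert lysine side chains of collagens and elastin into reactive aldehydes, which then form the covalent crosslinks that make collagen fibrils stiff and elastic fibres durable. In the lung these crosslinks hold together the walls of airways, vessels and alveoli, and mice that lack Lox die around birth with ruptured arteries and poorly developed lungs. The product of Col6a1 is part of collagen VI, a microfibrillar collagen that lies beside basement membranes.

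The members share a catalytic domain at their C-terminal end, which holds the histidines that bind copper. Loxl2, Loxl3 and Loxl4 also carry scavenger receptor cysteine-rich domains that Lox and Loxl1 lack. The stretch that codes for these histidines is shown for 4 members, because this copper site defines the family and its letters show how close the members' transcripts are to each other. The letters are from GENCODE M21 transcripts on GRCm38, 33 bases each, 5′ to 3′ on the coding strand. Capitals mark the 4 histidine codons.
Loxl1: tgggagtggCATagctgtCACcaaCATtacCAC
Loxl2: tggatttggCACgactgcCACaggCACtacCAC
Loxl3: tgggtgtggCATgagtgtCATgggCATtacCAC
Loxl4: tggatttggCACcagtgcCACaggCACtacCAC
In each gene the stretch crosses a splice junction. It runs from exon 3 into exon 4 of Loxl1 (chr9:58293720-58294381, minus strand), from exon 10 into exon 11 of Loxl2 (chr14:69682316-69689037, plus strand), from exon 10 into exon 11 of Loxl3 (chr6:83049995-83050125, plus strand), and from exon 11 into exon 12 of Loxl4 (chr19:42598807-42599899, minus strand), and these spans include the intron. Loxl2 and Loxl4 had 31 of 33 bases in common there, and Lox and Loxl1 had 32 of 33. The other pairs had 21 to 25 of 33 in common. Across whole transcripts the longest run of identical bases between any 2 members was 32 bases, between Lox and Loxl1, and it was 28 bases or fewer in the other pairs.

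The libraries held 28055414 to 37904878 reads in genes. Col6a1 itself was at 10034, 10616 and 9344 normalized counts in Col6a1-/- lungs, against 19907, 18393 and 22330.5 in wildtype lungs, so that its transcript was lower in every Col6a1-/- library but still present (log2 fold change -1.01, limma adjusted p 0.00643). Lung markers were present in all libraries, with summed normalized counts of alveolar type 2 cell genes of 703752 to 879013 in Col6a1-/- and 772186 to 877079 in wildtype lungs. Several marker lists separated the genotypes: fat tissue genes summed to 2658 to 4379 in Col6a1-/- and 1144 to 2166 in wildtype lungs, red cell genes to 62062 to 102287 and 41736 to 47783, adventitial fibroblast genes to 11223 to 11656 and 9351 to 10041, alveolar fibroblast genes to 126155 to 149602 and 120178 to 123371, alveolar macrophage genes to 9645 to 12006 and 12258 to 14110, and capillary endothelial genes to 86024 to 90050 and 99437 to 109012. Smooth muscle genes overlapped, at 27753 to 29305 in Col6a1-/- and 27149 to 35664 in wildtype lungs. The wildtype replicates 1, 2 and 3 were at 35664, 34712 and 27149, and all 5 smooth muscle genes had lower estimates (median log2 fold change -0.16). The sum of the alveolar fibroblast genes did not stand for the whole list, since 3 of its 5 genes had lower estimates (median log2 fold change -0.02). Sums of alveolar type 1 cell, mesothelial, airway cartilage and cardiac muscle genes overlapped, though 0 of the 5 cardiac muscle genes had lower estimates. Of single tested genes, 14.2% were lower and 10.7% higher without overlap, and no such share was taken for sums. The level of 4 Y-linked genes, given for replicates 1, 2 and 3 as a percentage of that in Col6a1-/- replicate 2, was 72.5%, 100% and 51.1% for Col6a1-/- lungs, against 0.347%, 3.35% and 51.5% for wildtype lungs. Xist, which is expressed from the inactive X chromosome of females, had 12025, 28.4 and 10486 normalized counts in the Col6a1-/- replicates and 16212, 16430 and 13592 in the wildtype replicates. Xist was higher in Col6a1-/- replicate 1 than in replicate 3 although its Y-linked level was higher too, so neither gives the exact share of males in a pool. The part of these differences in the values of the lysyl oxidases was not tested, apart from a fit with the Y-linked level as a covariate. In whole tissue, fewer cells of a type and less RNA per cell cannot be told apart.

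All 5 lysyl oxidase genes had lower mean levels and lower limma estimates in Col6a1-/- lungs than in wildtype lungs, where 48.3% of all tested genes had lower estimates. The log2 fold change of Lox was 0.03 without Col6a1-/- replicate 2, and that of Loxl2 was -0.02 without wildtype replicate 3. Loxl4 was at 62.2% of the wildtype mean, and the other 4 lay between 83.9% and 88.3%. None of the 5 passed an adjusted p of 0.05 in the limma fit over all genes, where 0.0652% of genes passed (0.0474% lower and 0.0178% higher). Loxl4 was the 1 member with an unadjusted p under 0.05, as 20.3% of all genes had (10.6% lower and 9.72% higher). In the authors' deposited table, which called 5.05% of genes with an adjusted p (3.18% lower and 1.87% higher), Loxl4 was the 1 member called, with an adjusted p of 0.0434. On reads recovered from the table, edgeR called none of the members and 0.077% of all genes (0.0592% lower and 0.0178% higher), and DESeq2 called Loxl4 and 5.06% of all genes (3.18% lower and 1.87% higher). For Loxl3 and Loxl4 every Col6a1-/- pool lay below every wildtype pool, and 14.2% of all tested genes were lower in Col6a1-/- lungs without overlap.

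**Figure D1:**
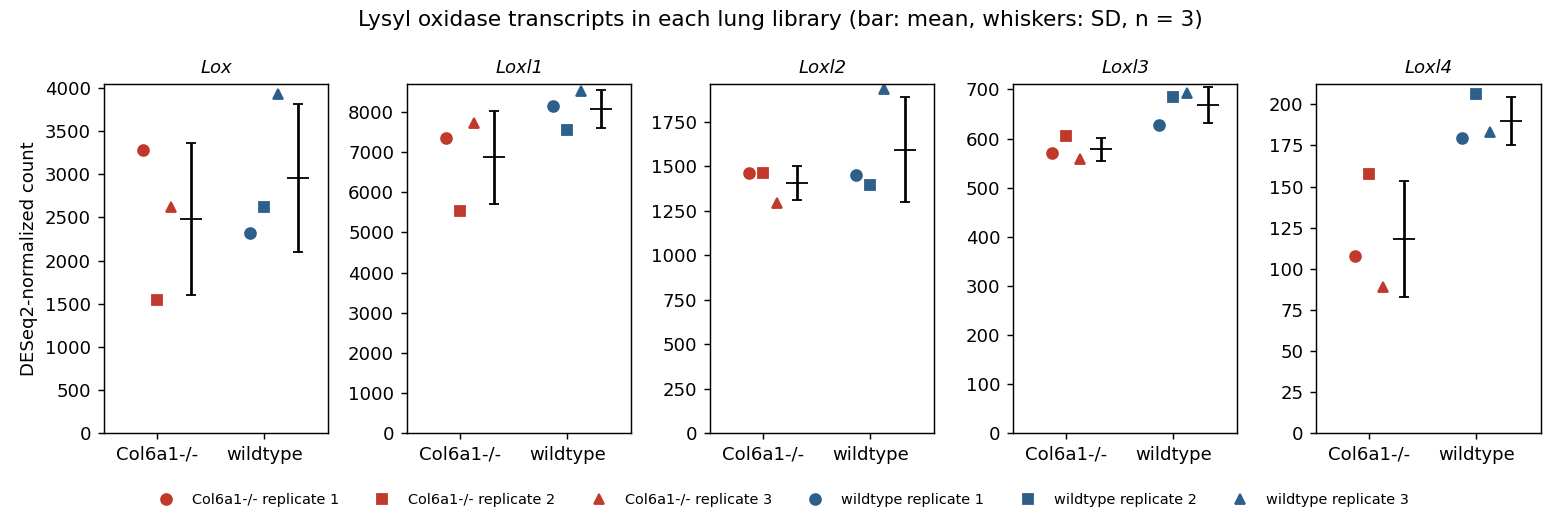
DESeq2-normalized counts of the 5 lysyl oxidase genes in each library, Col6a1-/- at left and wildtype at right in each panel; symbols give the replicate, and bars with whiskers give the mean and SD of 3 libraries. For Loxl3 and Loxl4 the red and blue points are separate, with Col6a1-/- below, while Lox, Loxl1 and Loxl2 overlap.

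Lox (ENSMUSG00000024529.14, GRCm38 chromosome 18, 52516067 to 52529867, minus strand) encodes the founding enzyme, which crosslinks fibrillar collagens and elastin. The Col6a1-/- replicates 1, 2 and 3 held 3283, 1545 and 2620 normalized counts of it, against 2321, 2621 and 3931 in wildtype replicates 1, 2 and 3. The groups overlapped: Col6a1-/- replicate 1 was the second highest of the 6 libraries and wildtype replicate 1 the second lowest. It averaged 2482.7 ± 877 in Col6a1-/- lungs, against 2957.8 ± 856 in wildtype (SD over 3 pools each). The estimated log2 fold change was -0.28 (SE 0.26, limma adjusted p 0.555), and its 95% interval, taken as a ratio, ran from 55.4% to 122% of wildtype. The estimate was 0.03 without Col6a1-/- replicate 2 and -0.06 without wildtype replicate 3, so its direction turned without that Col6a1-/- pool alone. It was -0.52 to -0.35 without any 1 of the other 4 libraries.

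Loxl1 (ENSMUSG00000032334.10, chromosome 9, 58287738 to 58313186, minus strand) encodes the member best known from elastic fibre upkeep, where it is tethered by fibulin 5. Mice that lack it develop widened airspaces. It had 7351, 5534 and 7715 normalized counts in Col6a1-/- lungs, against 8149, 7559 and 8511 in wildtype lungs. Col6a1-/- replicate 2 was the lowest library, and Col6a1-/- replicate 3 lay above wildtype replicate 2. Loxl1 averaged 6866.6 ± 1169 in Col6a1-/- lungs, against 8073 ± 480 in wildtype (SD over 3 pools each), a ratio of 85.1%. This is a log2 fold change of -0.25 (SE 0.12, limma adjusted p 0.289), whose 95% interval ran from 69.6% to 102% of wildtype. It was -0.10 without Col6a1-/- replicate 2.

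Loxl2 (ENSMUSG00000034205.16, chromosome 14, 69609068 to 69695834, plus strand) encodes an enzyme that crosslinks collagen IV of basement membranes as well as fibrillar collagens. The table gave it 1464, 1460 and 1293 normalized counts in Col6a1-/- lungs, against 1450, 1395 and 1931 in wildtype lungs. The Col6a1-/- libraries and 2 of the wildtype libraries lay close together, and wildtype replicate 3 stood above all others. Loxl2 averaged 1405.3 ± 97.7 in Col6a1-/- lungs, against 1592 ± 295 in wildtype (SD over 3 pools each), for a log2 fold change of -0.17 (SE 0.13, limma adjusted p 0.477). The 95% interval ran from 73.3% to 108% of wildtype. Without wildtype replicate 3 the log2 fold change was -0.02.

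Loxl3 (ENSMUSG00000000693.10, chromosome 6, 83034173 to 83052562, plus strand) encodes a member that mice need for the palate and the spine. It had 571, 605 and 559 normalized counts in Col6a1-/- lungs, against 627, 685 and 693 in wildtype lungs. Its libraries varied little within a genotype: the pooled SD of the log2 values was 0.069, a value below which 8.12% of tested genes lay, and close to the 0.058 that counting alone gives at 553 to 716 reads per library. Loxl3 averaged 578.3 ± 23.7 in Col6a1-/- lungs, against 668.5 ± 35.9 in wildtype (SD over 3 pools each). The difference on the log2 scale was -0.21 (SE 0.098, limma adjusted p 0.261), and the 95% interval ran from 74.5% to 101% of wildtype. It stayed between -0.25 and -0.18 when any 1 library was left out. Htra2, on the opposite strand, overlaps Loxl3 by 1297 bases. The sources used here do not say whether reads were counted by strand, so it is not known whether reads in that stretch were told apart. Htra2 had 880, 1017 and 976 normalized counts in Col6a1-/- lungs, against 883, 882 and 823 in wildtype lungs, with overlap (limma adjusted p 0.401).

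Loxl4 (ENSMUSG00000025185.14, chromosome 19, 42593982 to 42612813, minus strand) encodes the member with the fewest transcripts here. It had 108, 157 and 89.0 normalized counts in Col6a1-/- lungs, against 180, 206 and 183 in wildtype lungs. Every Col6a1-/- library was below every wildtype library, and Col6a1-/- replicate 2 came closest to them. Loxl4 averaged 118 ± 35.4 in Col6a1-/- lungs, against 189.7 ± 14.6 in wildtype (SD over 3 pools each). Its log2 fold change was -0.72 (SE 0.20, unadjusted p 0.00499, limma adjusted p 0.117), and the 95% interval ran from 44.5% to 83.0% of wildtype.

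These values rested on 89 to 189 reads per library. An exact 95% Poisson interval, which covers counting error only, was 71.5 to 109 normalized counts in Col6a1-/- replicate 3, the lowest library, and 178 to 238 in wildtype replicate 2, the highest. The spread between pools of a genotype, a pooled SD of 0.30 on the log2 scale, exceeded the 0.12 that counting gives. With 1 library left out, the log2 fold change of Loxl4 ran from -0.95 (without Col6a1-/- replicate 2) to -0.54 (without Col6a1-/- replicate 3), with limma adjusted p between 0.0522 and 0.382. DESeq2 on the recovered reads gave -0.69 with an adjusted p of 0.0434, and edgeR gave -0.70 with an adjusted p of 0.116. The authors' deposited table gave a log2 fold change of -0.49 for Loxl4, and -0.11, -0.20, -0.15 and -0.19 for Lox, Loxl1, Loxl2 and Loxl3, with adjusted p of 0.76, 0.305, 0.489 and 0.329. These fold changes were smaller than those of DESeq2 on the recovered reads, which gave -0.25 for Lox. The unadjusted p were nearly the same in both, 0.00197 for Loxl4 and 0.512 for Lox. The reason for the smaller fold changes was not tested.

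**Figure D2:**
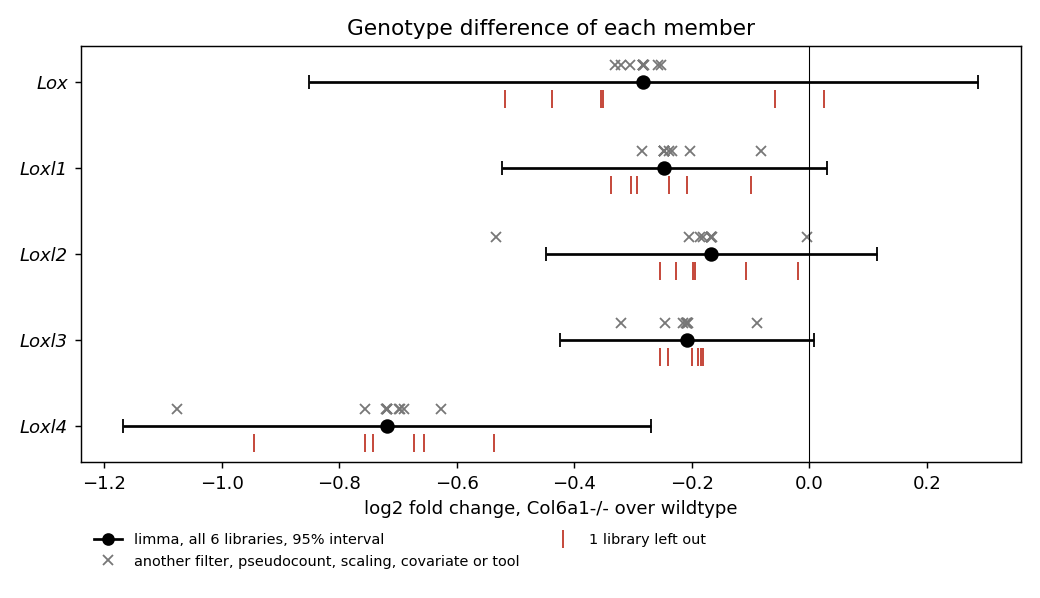
Log2 fold change, Col6a1-/- over wildtype, of each lysyl oxidase gene; circles and bars give the limma estimate with its 95% interval, crosses the estimates under another filter, pseudocount, scaling, covariate or tool, and red ticks the estimates with 1 library left out. The interval of Loxl4, from -1.17 to -0.27, is the 1 that does not reach 0, and the estimates of Lox lie on both sides of 0.

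A fit that took the Y-linked level of the pools as covariate gave log2 fold changes of -0.33 for Lox, -0.08 for Loxl1, -0.53 for Loxl2, -0.32 for Loxl3 and -1.08 for Loxl4, and in limma no gene passed the adjusted threshold (1306 had an unadjusted p under 0.05). Once each library's trend on the length and GC content of transcripts was taken out, the estimates were -0.30, -0.20, -0.003, -0.09 and -0.63 in the same order. Loxl4 had the lowest estimate of the family in both fits, and the estimates of Loxl2 and Loxl3 came closest to 0 in the second.

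The genotype differences of the members were set against each other by the ratio of 2 members within each library, for all 10 pairs. The log2 ratio of Loxl4 to Loxl3 was -2.40, -1.93 and -2.64 in Col6a1-/- lungs, against -1.80, -1.73 and -1.92 in wildtype lungs. This was the 1 pair of 10 whose ratios did not overlap, by a difference of -0.51 (exact permutation test, two-sided, p = 0.1, the smallest that 3 against 3 libraries allow, and 1 after adjustment over the 10 pairs). The differences in the log2 ratios of Loxl4 to Lox, Loxl1 and Loxl2 were -0.44, -0.47 and -0.55, with exact permutation p of 0.4, 0.4 and 0.2. The 6 pairs without Loxl4 differed by -0.12 to -0.04. Since no pair could pass 0.05 with 3 libraries per genotype, these p-values do not settle whether the members differed from each other.

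Levels of different genes were compared as normalized counts per kilobase of the longest annotated transcript, which is 3297 to 5316 bases long in this family. The order was the same in each of the 6 libraries, with Loxl1 highest, followed by Lox, Loxl2, Loxl3 and Loxl4, and within each genotype no 2 neighbours in this order overlapped. Loxl1 was at 2083 ± 354 per kilobase in Col6a1-/- lungs, against 2449 ± 146 in wildtype (SD over 3 pools each). Lox followed at 524 ± 185 and 624 ± 181, and Loxl2 at 264 ± 18.4 and 299.5 ± 55.5. Loxl3 was at 141 ± 5.78 and 163 ± 8.77, and Loxl4 at 31.6 ± 9.47 and 50.7 ± 3.90.

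**Figure D3:**
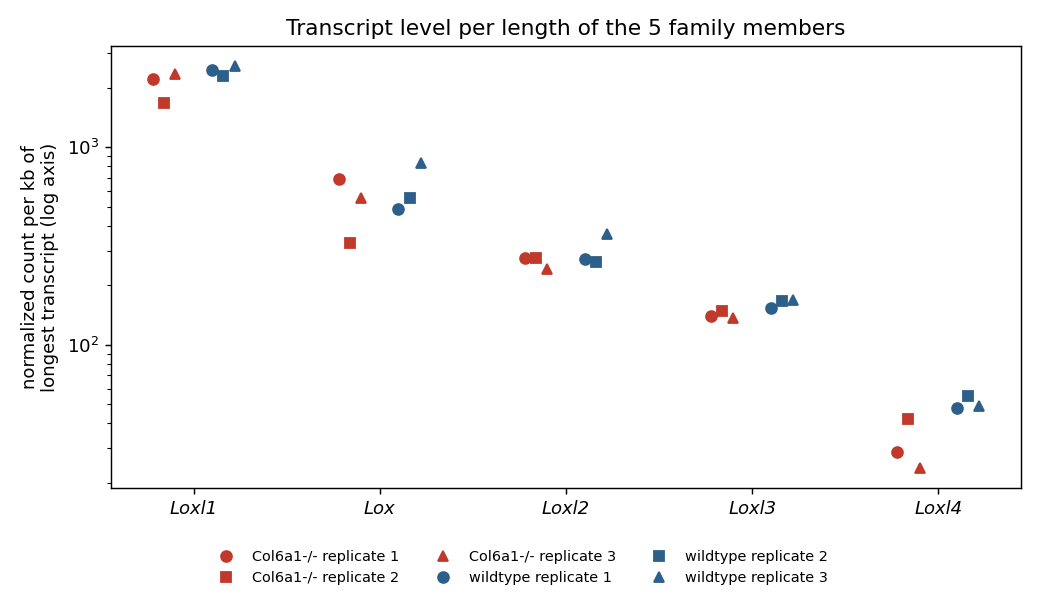
Normalized counts per kilobase of the longest transcript (log axis) of the 5 members in order of level, with the 3 Col6a1-/- libraries in red left of the 3 wildtype libraries in blue. Each library shows the same order, from Loxl1, which averaged 2083 in Col6a1-/- and 2449 in wildtype lungs, to Loxl4 at 31.6 and 50.7.

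Loxl1 held most of the family's transcripts in both genotypes, 68.4% ± 2.40 of the level per kilobase in Col6a1-/- lungs, against 68.5% ± 3.66 in wildtype (SD over 3 pools each). Lox held 16.8% ± 3.69 and 17.2% ± 3.30, and Loxl2 8.89% ± 1.97 and 8.31% ± 0.689. Loxl3 held 4.75% ± 1.06 and 4.57% ± 0.403, and Loxl4 1.09% ± 0.534 and 1.43% ± 0.217. For each member the difference in share was smaller than the SD in at least 1 genotype. The family's summed level was 3366, 2469 and 3296 per kilobase in Col6a1-/- lungs, against 3435, 3331 and 3992 in wildtype lungs. The ratio of the means, Col6a1-/- over wildtype, was 84.9%. Col6a1-/- replicate 2 was the lowest, and Col6a1-/- replicate 1 lay above wildtype replicate 2.

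The members did not vary alike across libraries. In log2 units relative to each gene's own mean, Col6a1-/- replicate 2 was the lowest library for Lox, at -0.76, and for Loxl1, at -0.42, while Col6a1-/- replicate 3 was the lowest for Loxl2, Loxl3 and Loxl4, at -0.20, -0.15 and -0.72. Wildtype replicate 3 was the highest library for Lox, Loxl1, Loxl2 and Loxl3, at 0.59, 0.20, 0.38 and 0.16, and wildtype replicate 2 for Loxl4, at 0.48. Lox had a pooled SD of 0.48 within genotypes, above that of 93.3% of tested genes. Eln, the gene of elastin, codes for the main substrate of Loxl1 and was picked out after its values were seen. It had the same lowest and highest library as Lox, with deviations of -1.72 in Col6a1-/- replicate 2 and 1.15 in wildtype replicate 3. Eln had 40468, 11040 and 38253 normalized counts in Col6a1-/- lungs, against 44389, 37631 and 80551 in wildtype lungs (log2 fold change -0.99, SE 0.44, limma adjusted p 0.24).

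**Figure D4:**
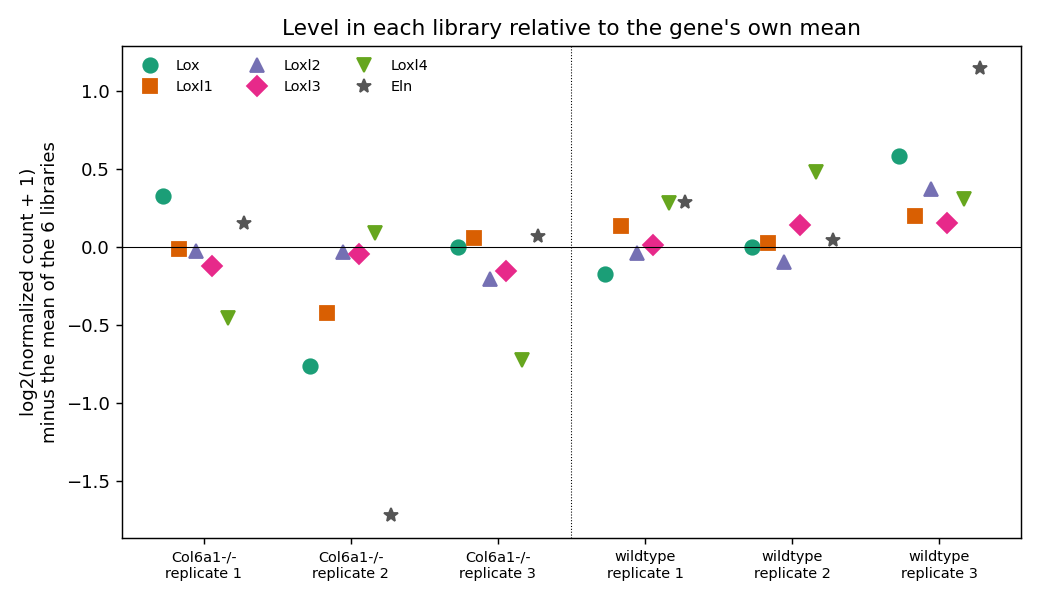
Log2(normalized count + 1) of the 5 members and of Eln in each library, minus the gene's mean over the 6 libraries; the 3 Col6a1-/- libraries are left of the dotted line and the 3 wildtype libraries right of it. Lox, Loxl1 and Eln are lowest in Col6a1-/- replicate 2, where Loxl4 stands at 0.095.

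The genes with the most similar pattern over the 6 libraries were found by Pearson's r of the log2 values, among 13290 other genes with a mean normalized count of at least 50. With so many genes and so few libraries high values of r are found for any pattern, so they are given as a description. For Lox these were Tlr8, Sass6 and Selenoi, with r of 0.998, 0.994 and 0.993. For Loxl1 they were Ebi3, Fam169b and Zim1 (0.996, 0.995 and 0.989), and for Loxl2 Ercc6l, Apbb2 and Arhgap19 (0.989, 0.988 and 0.984). For Loxl3 they were Lyve1, a hyaluronan receptor of lymphatic endothelium, Zfp180 and Slc7a6 (0.990, 0.986 and 0.985). For Loxl4 they were Arid5a, Sema7a, a membrane-anchored semaphorin, and Zfp746 (0.998, 0.995 and 0.994). Within the family the most alike were Loxl3 and Loxl4 (0.908) and Lox and Loxl1 (0.813), while Lox and Loxl4 had an r of -0.079.

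None of the tested genes beside the members on the chromosome passed the adjusted threshold in limma, which 0.0652% of all tested genes passed. With so few genes passing, this does not show that the levels of these neighbours were unchanged. R3hcc1l, 1639 bases from Loxl4, was at 102% of wildtype (limma adjusted p 0.89). R3hcc1, 1473 bases from Loxl2, was at 98.8% (0.944), and Dok1 and Aup1, on either side of Loxl3, were at 105% (0.706) and 107% (0.556). Stoml1, on the low side of Loxl1, was at 105% (0.715). Srfbp1 and Zfp474, on either side of Lox, were at 88.9% (0.464) and 110% (0.506). Besides Htra2, genes on the opposite strand overlap Lox (AC161119.1, by 1207 bases) and Loxl2 (Gm27177, by 74219 bases, and Gm37513, by 2268 bases). No values were found for AC161119.1. Gm27177 had 1.04 normalized counts in wildtype replicate 1 and 0 elsewhere, and Gm37513 had 0 throughout. These overlaps, like that of Htra2, are between whole gene spans with introns included, while the exons of Loxl2 cover 5405 bases. As with Htra2, it is not known whether reads in these stretches were told apart by strand.

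Lists of genes that act with lysyl oxidases were described by the direction of their estimates. Over the 10 lists, 116 of 119 genes were tested, and 85 had lower and 31 had higher estimates in Col6a1-/- lungs, where 48.3% of all tested genes were lower. None passed the adjusted threshold in limma, and 27 lower and 4 higher had an unadjusted p under 0.05, with 10.6% and 9.72% of all genes as the background. DESeq2 on the recovered reads called 9 of the 113 with an adjusted p, or 7.96% (8 lower and 1 higher), where it called 5.06% of all genes.

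Genes of the family's substrates and of elastic fibre scaffolds lay mostly lower. The elastic fibre list holds Eln together with scaffold genes. In the elastic fibre list, 14 of 17 genes had lower estimates, and the median estimate was -0.15 on the log2 scale, against 0.0098 over all tested genes. Fbn1, the gene of fibrillin 1, which forms the microfibrils of elastic fibres, had 9699, 6521 and 8544 normalized counts in Col6a1-/- lungs, against 11457, 10370 and 13880 in wildtype lungs. It was lower without overlap, at 69.4% of wildtype (limma adjusted p 0.118). In this list 5 genes were lower without overlap and 1, Efemp1, was higher without overlap. Of all tested genes, 14.2% were lower and 10.7% higher without overlap. Emilin1, of an elastic fibre glycoprotein, and Ltbp2, of a latent TGF-beta binding protein relative, stood at 79.8% and 78.5% (limma adjusted p 0.119 and 0.12). The scaffolds that bring lysyl oxidases to elastin, Fbln5 and Efemp2, the genes of fibulin 5 and fibulin 4, stood at 95.1% and 102% (adjusted p 0.688 and 0.959).

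Of 10 tested fibrillar collagen genes, 9 had lower estimates, with a median of -0.23. Col5a1 and Col5a2, of the collagen V chains that start fibrils, stood at 79.0% and 81.6% of wildtype, and Col1a1 and Col3a1 at 88.7% and 91.6%, with limma adjusted p of 0.154, 0.202, 0.397 and 0.65. The cartilage gene Col2a1 was the 1 with a higher estimate, at 10.4 to 15.3 normalized counts in Col6a1-/- lungs and 3.87 to 7.68 in wildtype lungs (adjusted p 0.159). All 6 collagen IV genes had lower estimates (median -0.24), with Col4a1 at 78.6%, Col4a2 at 80.7% and Col4a6 at 82.9% of wildtype and adjusted p of 0.164, 0.173 and 0.189. The medians of the elastic fibre, fibrillar collagen and collagen IV lists were -0.06, -0.05 and -0.04 with the trend on length and GC content removed, and -0.27, -0.33 and -0.50 with the Y-linked level as a covariate.

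Lox and Loxl1 are made as proenzymes that BMP1 and its relatives cleave, on scaffolds that include fibronectin and periostin. In this list 9 of 10 tested genes had lower estimates (median -0.23). Fn1, the gene of fibronectin, had 19563, 15428 and 15535 normalized counts in Col6a1-/- lungs, against 25983, 25704 and 30785 in wildtype lungs. It was at 61.3% of wildtype with a limma adjusted p of 0.0693, the lowest of the 10 lists. Thbs1, of thrombospondin 1, stood at 68.8% and Tll1, of a BMP1-like protease, at 70.3% (adjusted p 0.0939 and 0.131), both without overlap. Among the tested genes of this list 4 were lower and 0 higher without overlap, where 14.2% and 10.7% of all tested genes were. Bmp1 and Postn stood at 97.6% and 99.6% (0.84 and 0.982).

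Copper reaches the enzymes through the secretory pathway, into which the transporter encoded by Atp7a pumps it. Atp7a had 1061, 857 and 689 normalized counts in Col6a1-/- lungs, against 1300.2, 1334 and 1501 in wildtype lungs. No libraries overlapped, the ratio was 63.0%, and the limma adjusted p was 0.0869. Of all tested genes, 14.2% were lower without overlap. In the authors' deposited table Atp7a had a log2 fold change of -0.56 and an adjusted p of 0.00194. Other list genes were called lower there too: Fn1 (adjusted p 1.25e-05), Thbs1 (0.00499), Tgm2 (0.0154), Fbn1 (0.0192), Ltbp2 (0.042), Col4a1 (0.0438) and Emilin1 (0.0482). Bnip3 of the hypoxia list was called higher (0.00589). The authors called 5.05% of all genes (3.18% lower and 1.87% higher). The copper list as a whole lay around 0, with 6 of 11 genes lower and a median of -0.002 (-0.15 with the Y-linked level as a covariate). Mt2, of a metallothionein, stood at 75.7% and Commd1 at 113% (0.286 and 0.499), and Slc31a1, of the copper importer, at 109% (0.526).

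Enzymes that hydroxylate and fold collagen before crosslinking had lower estimates for 13 of 15 genes, with a median of -0.12. P4ha1, of a prolyl hydroxylase subunit, stood at 82.3%, and the lysyl hydroxylase genes Plod3 and Plod1 both at 83.9% of wildtype, without overlap and with limma adjusted p of 0.116, 0.166 and 0.177. In this list 5 genes were lower without overlap and 1, Colgalt2, was higher without overlap, at 106% of wildtype. Of all tested genes, 14.2% were lower and 10.7% higher without overlap. Plod2, whose product hydroxylates the collagen telopeptides that lysyl oxidases act on, stood at 95.9% (0.906). Among other crosslinking enzymes and copper amine oxidases 7 of 9 genes had lower estimates (median -0.19), led by Tgm2, of transglutaminase 2, at 16478, 17282 and 16217 normalized counts in Col6a1-/- lungs and 22106, 20795 and 20203 in wildtype lungs (adjusted p 0.108). Pxdn, of the peroxidase that forms sulfilimine bonds in collagen IV, stood at 87.1%, and Qsox1 at 87.9% (0.289 and 0.296).

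TGF-beta and hypoxia are known inducers of lysyl oxidases. In the TGF-beta list 9 of 14 genes had lower estimates (median -0.08). Smad3, of a signal transducer, stood at 80.3%, Tgfbr2, of a receptor, at 84.0% and Tgfb1, of a ligand, at 86.3% of wildtype, all without overlap and with limma adjusted p of 0.145, 0.17 and 0.214. Over the TGF-beta list 4 genes were lower without overlap, as 14.2% of all tested genes were. Smad7 was higher without overlap, at 111% of wildtype (limma adjusted p 0.357). In the hypoxia list 9 of 16 genes had higher estimates (median 0.05, but -0.016 with the Y-linked level as a covariate and -0.0013 without Col6a1-/- replicate 2). Its leading members Bnip3, Ankrd37 and Pdk1 were 1.41-fold, 1.57-fold and 1.21-fold the wildtype level without overlap (0.0869, 0.114 and 0.161). Of all tested genes, 10.7% were higher without overlap, and 2 other genes of the hypoxia list were lower without overlap. In the list of epithelial to mesenchymal factors, several of which are tied to Loxl2 and Loxl3, 5 of 8 tested genes had lower estimates (median -0.09, but 0.036 without Col6a1-/- replicate 2), and Zeb1, Cdh2 and Cdh1 stood at 89.3%, 88.4% and 92.0% (0.333, 0.425 and 0.438).

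**Figure D5:**
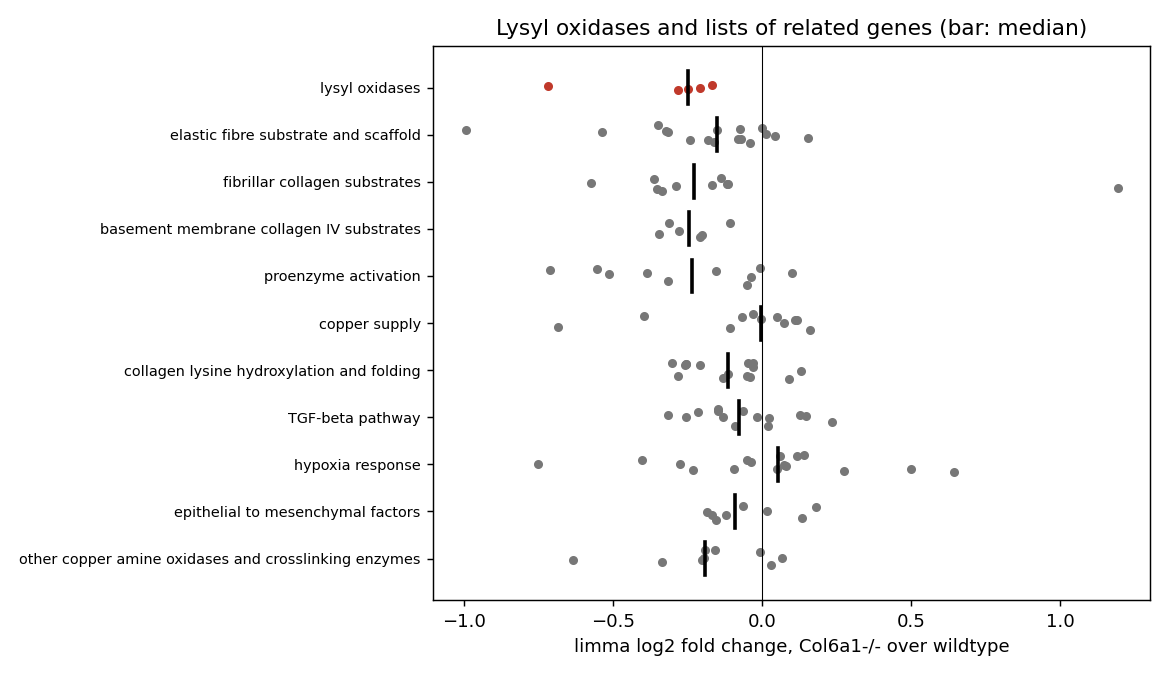
Limma log2 fold change, Col6a1-/- over wildtype, of each tested gene in the lysyl oxidase family (red) and in 10 lists of related genes (grey); bars are medians and vertical scatter carries no meaning. The family's median is -0.25, those of the elastic fibre, fibrillar collagen, collagen IV and proenzyme lists lie between -0.24 and -0.15, and those of the copper and hypoxia lists are -0.002 and 0.05.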

How the data were processed

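RNA of 6 lung libraries was compared by genotype, 3 Col6a1-/- against 3 wildtype. Without saying which did what, the submitters' processing notes name featureCounts, the genome build GRCm38.p5, DESeq2 1.16.1, R 3.4.1, STAR 2.5.2b, Trimmomatic 0.36 and Subread 1.5.0p3. The sources used here do not give the annotation or the strand setting. Per the file headers, the authors deposited a signal per library that is a count normalized by DESeq2. All values (100%, within 1e-06) became whole reads when multiplied by the library's size factor (0.911 to 1.25). In Col6a1-/- replicate 3 that factor, 1.0003, is too near 1 for the step alone to test this. The reads so recovered give the depth and were the input of edgeR and DESeq2 as alternatives. For the comparison of the genotypes the authors deposited, per gene, a p-value, an adjusted p-value, a log2 fold change, and a mean and test statistic that are treated as a score. The column name of wildtype replicate 2 has an extra word, New, which the sources used here do not explain.

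The 16879 genes that reached 10 normalized counts in 3 or more libraries entered limma-trend (limma 3.58.1 in R 4.3.3), fitted to log2(normalized count + 1) with genotype as its sole term. The two-sided p were Benjamini-Hochberg adjusted over all of them and called under 0.05. The pseudocount makes this scale understate changes of genes with few counts. Percentages of wildtype are ratios of mean normalized counts. Intervals are at 95%. Pairs of members were compared by exact permutation over libraries. Gene positions and lengths came from GENCODE M21 (GRCm38), matched by symbol for 95.3% of the rows, and Ccn2 was found under its older symbol Ctgf through RefSeq synonyms.

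The members and lists were chosen with earlier results of these data known. Text names the members, Col6a1, up to 3 genes per list with the smallest unadjusted p, neighbouring genes and the 3 genes most alike in pattern; further list members were chosen after their values were seen. Alternatives were pseudocounts of 0.5 and 5, no filter and a filter at 50, median centring, edgeR 4.0.16, DESeq2 1.42.0, the replicate number as a block, the Y-linked level (mean of 4 genes) as a covariate, removal of a trend on length and GC content (natural splines, 5 degrees of freedom), each library left out, and other gene lengths. The limma script was tested on simulated data. Figures were drawn with matplotlib 3.10.9.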

Additional observations from a re-analysis of the deposited data

How the results depend on the processing

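The count of genes called by limma over the whole table, 11, was 93 without a filter, 7 with a filter at 50, 26 with median centring, 81 with the length and GC trend removed, 742 with DESeq2, 0 with the Y-linked level as a covariate (1306 genes at an unadjusted p under 0.05), and 0 to 1383 with 1 library left out. It was 0 without wildtype replicate 1 or Col6a1-/- replicate 3, 2 without wildtype replicate 2, 47 without Col6a1-/- replicate 2 and 1383 without wildtype replicate 3. The cause was not tested. The called members over the 10 related lists, 0 in the limma fit, numbered 2 without a filter, 1 with median centring, 9 with DESeq2, 1 with the trend removed, and 0 to 5 with 1 library left out (5 without wildtype replicate 3).

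The replicate block gave 7 called genes. Same-numbered pools are different animals, their deviations correlated at -0.14, 0.11 and -0.0059, and the block brought no lysyl oxidase past the threshold.

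Loxl4 passed the threshold with DESeq2 alone (log2 fold change -0.69). It and Loxl1, Loxl2 and Loxl3 kept a negative sign in all 16 alternatives. Lox ranged from -0.52 to 0.026 with 1 library left out and was positive (0.026) without Col6a1-/- replicate 2. The difference in the log2 ratio ranged, with 1 library left out, from -0.21 to 0.15 for Lox over Loxl1, -0.32 to 0.27 for Lox over Loxl3, -0.32 to 0.22 for Lox over Loxl2, -0.15 to 0.14 for Loxl1 over Loxl3, -0.23 to 0.097 for Loxl1 over Loxl2 and -0.16 to 0.064 for Loxl3 over Loxl2; the 4 pairs with Loxl4 kept their sign.

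Without length correction, the shares in Col6a1-/- and wildtype lungs were 21.2% and 21.7% for Lox, 60.0% and 60.2% for Loxl1 and 12.6% and 11.7% for Loxl2. The share of Loxl3 in wildtype lungs was 4.99% without length correction and 4.11% with merged exon length.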

Other observations

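Ratios of the family to its substrates, chosen after values were seen, are given as levels per kilobase without a test. Lox was at 6.59%, 11.4% and 5.57% of the level of Eln in Col6a1-/- lungs, against 4.25%, 5.66% and 3.97% in wildtype lungs. Loxl1 was at 21.2%, 58.6% and 23.6% of Eln in Col6a1-/- lungs, against 21.5%, 23.5% and 12.3% in wildtype lungs. The ratios to Eln were thus highest in Col6a1-/- replicate 2, where Eln was lowest, and lowest in wildtype replicate 3, where Eln was highest.

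Against Col1a1 the ratios lay closer together. The summed family was at 84.8%, 62.7% and 86.6% of the level of Col1a1 in Col6a1-/- lungs, against 78.4%, 85.3% and 81.2% in wildtype lungs. Against Col4a1 it was at 38.8%, 30.7% and 44.7% in Col6a1-/- lungs and 33.8%, 36.3% and 35.4% in wildtype lungs. The groups overlapped against each of these genes.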
